A study of Mus musculus with 18 samples.

Results

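A set of 9 genes better known from B cells was examined in cultured mouse CD4 T cells: Pou2af1, its partner factors Pou2f1 and Pou2f2, the B lineage factor Ebf1, and the major histocompatibility complex (MHC) class II group of H2-Ab1, H2-Aa, H2-Eb1, Cd74 and Ciita. They were taken by symbol through their Entrez identifiers, 9 of the 27179 genes in the deposited count tables, and all 9 were found. The members were chosen by earlier results of these data, mainly the differences between genotype labels in the Tfh5 and Tfh1 cultures, so those differences are given as a description with no test. The 18 libraries formed 6 groups of 3. Cells labelled CD4Cre+ Maf fl/fl were cultured as Tfh5, Tfh1 or TfhA (written Tfh_5, Tfh_1 and Tfh_A in the treatment field), and cells labelled CD4Cre- Maf fl/fl were cultured in the same 3 ways. All 18 libraries thus came from cells with the floxed Maf allele. All were naive CD4 T cells stimulated for 3.5 days by plate-bound antibodies to CD3 and CD28, and all were sorted by flow cytometry before RNA extraction. The Cre transgene acts in the whole T lineage, since the Cd4 promoter that drives it is active from the thymus on. The sources used here do not give what the 3 culture conditions contained.

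Pou2af1 encodes OCA-B, a coactivator with no strong DNA binding of its own that docks on the POU factors encoded by Pou2f1 and Pou2f2 where these sit on octamer DNA. It is required for germinal centres in B cells and is also used by helper T cells. Ebf1 encodes a transcription factor that commits progenitors to the B lineage. H2-Aa and H2-Ab1 encode the chains of the class II molecule I-A, H2-Eb1 encodes a chain of I-E, and Cd74 encodes the invariant chain that guides class II molecules to the endosome. Ciita encodes the coactivator that switches the class II genes on, by binding the RFX and NF-Y complexes at the X and Y boxes of their promoters. Mouse T cells, unlike activated human T cells, are known for making little class II.

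The depth was 6424874 to 9236153 counts per library. Levels are given as CPM, counts scaled to a common library size after a TMM factor of 0.830 to 1.389 that evens out differences in RNA composition. Maf, the floxed gene, ran against the genotype labels. It stood at 319 to 397 CPM in Tfh5, 196 to 260 CPM in Tfh1 and 5.03 to 22.8 CPM in TfhA libraries labelled Cre-positive, against 0, 0 to 2.03 and 0 to 0.270 CPM in the same cultures labelled Cre-negative. Every direction between genotype labels below is therefore a direction between labels only. The replicates were numbered 1, 3 and 6 under the Cre-positive label, and 2, 4 and 5 under the Cre-negative label. No label ties a number to an animal or culture, so a p-value reflects only how far these libraries scatter, and that scatter may be technical.

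The RNA carried the T cell markers throughout. Summed over 10 T cell genes, the level was 1815 to 3693 CPM per library, and all 10 were above 0 in every group. The 18 B cell markers summed to 7.10 to 10.4, 0.124 to 11.6 and 4.02 to 18.3 CPM in Tfh5, Tfh1 and TfhA libraries labelled Cre-positive, against 1.004 to 6.55, 0 to 5.68 and 0.540 to 6.34 CPM in the same cultures labelled Cre-negative. The labels did not overlap in Tfh5, where the sum was higher under the Cre-positive label, as Pou2af1 was. In that group the sum averaged 8.58 CPM, of which Ighm made up 6.58 CPM, and Pou2af1 averaged 120 CPM. The highest mean sum, 10.4 CPM, was in TfhA labelled Cre-positive, where Pou2af1 averaged 7.41 CPM. Pax5, Fcrla, Cd72 and Ighd were at 0 in all 18 libraries, and Cd79a held 20 counts in all. Ighm was the B cell marker with the most counts, 476 over the 18 libraries. The dendritic and myeloid list of 18 genes summed to 5.74 to 9.48, 0.994 to 11.9 and 44.8 to 64.6 CPM in Tfh5, Tfh1 and TfhA libraries labelled Cre-positive, against 29.2 to 54.4, 16.6 to 46.5 and 46.4 to 79.6 CPM in the same cultures labelled Cre-negative. In TfhA and in all cultures labelled Cre-negative most of that sum was Batf3, a factor that T cells also use, with a mean of 27.9 CPM over the 18 libraries. Clec9a was at 0 in all libraries, and Flt3, Lyz2 and Adgre1 held less than 1 count each in all. The stromal list of 8 genes summed to 43.8 to 55.0, 27.8 to 43.7 and 40.3 to 111 CPM in Tfh5, Tfh1 and TfhA under the Cre-positive label, against 13.1 to 22.7, 21.3 to 28.6 and 51.5 to 73.1 CPM under the Cre-negative label. In it, Lum and Dcn, genes of the fibroblast matrix, were higher in TfhA than in Tfh5 and Tfh1 under both labels. Pecam1 made up most of the sum in Tfh5 and Tfh1. It went the other way under the Cre-positive label, with means of 48.8, 36.6 and 17.7 CPM in Tfh5, Tfh1 and TfhA. The collagen genes Col1a2 and Col3a1 held 0.2 and 0.5 counts in all, and Col1a1, Pdgfra and Pdgfrb held 60.2, 47.99 and 18.05. The plasma cell list of 7 genes summed to 189 to 476 CPM, mostly Irf4, which activated T cells also use, and the CD8 and NK list of 8 genes to 12.2 to 56.8 CPM. The part of these markers in the results below was not tested, and in bulk RNA fewer cells of a type and less RNA per cell cannot be told apart.

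**Figure D1:**
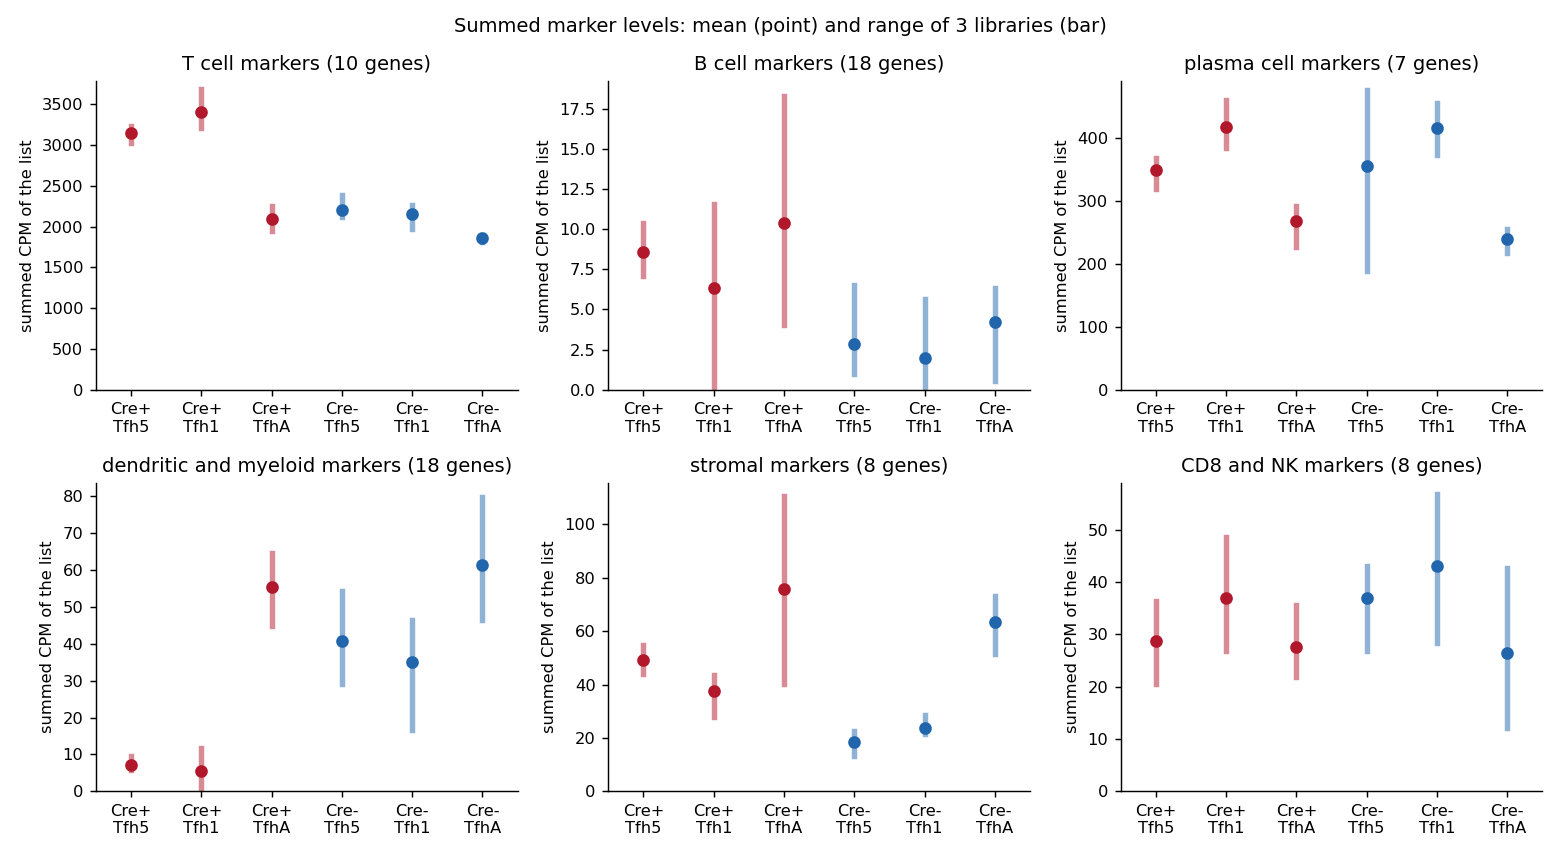
Summed level (CPM, vertical axis) of 6 marker lists in the 6 groups, Cre+ and Cre- being the genotype labels; points are means and bars the range of 3 libraries. The T cell list stands at 1815 to 3693 CPM in every library, the B cell list at 18.3 CPM or less, and the dendritic and myeloid list is low in Tfh5 and Tfh1 labelled Cre-positive.

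Promoter windows of the members were read from RefSeq on the build GRCm38.p6, the full form of mm10. Each window holds 250 bases before and 50 bases after a start site, and 6 of the 9 members matched; H2-Ab1, Cd74 and Ciita did not. The windows of Pou2af1, which differed between labels in both Tfh5 and Tfh1, and of the class II pair H2-Aa and H2-Eb1 are shown because the motifs through which OCA-B and Ciita act were searched in them. Capitals mark every match to the X box core AGNAACNG or to the Y box CCAAT, which reads ATTGG on the opposite strand. The Pou2af1 window is chr9:51213440-51213739 on the plus strand, the H2-Aa window chr17:34287774-34288073 on the minus strand and the H2-Eb1 window chr17:34305617-34305916 on the plus strand, each printed 5′ to 3′ in the direction of the gene.
Pou2af1: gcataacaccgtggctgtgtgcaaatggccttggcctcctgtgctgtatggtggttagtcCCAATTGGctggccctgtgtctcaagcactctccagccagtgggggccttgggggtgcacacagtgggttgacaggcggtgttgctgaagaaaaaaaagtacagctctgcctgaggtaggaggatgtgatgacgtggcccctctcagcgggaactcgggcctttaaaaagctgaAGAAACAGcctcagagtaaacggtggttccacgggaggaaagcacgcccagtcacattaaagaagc
H2-Aa: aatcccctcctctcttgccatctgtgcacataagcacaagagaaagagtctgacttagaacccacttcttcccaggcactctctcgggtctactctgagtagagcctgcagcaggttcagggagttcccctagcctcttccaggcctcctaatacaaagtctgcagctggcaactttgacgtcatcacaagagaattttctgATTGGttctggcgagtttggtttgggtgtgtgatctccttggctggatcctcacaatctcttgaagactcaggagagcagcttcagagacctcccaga
H2-Eb1: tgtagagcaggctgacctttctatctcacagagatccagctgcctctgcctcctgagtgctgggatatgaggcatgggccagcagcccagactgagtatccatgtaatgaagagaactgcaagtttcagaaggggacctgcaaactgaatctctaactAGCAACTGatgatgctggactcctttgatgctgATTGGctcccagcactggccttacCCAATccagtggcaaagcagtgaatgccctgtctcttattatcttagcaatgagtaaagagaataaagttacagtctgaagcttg
The H2-Eb1 window held an X box core, AGCAACTG, 92 bases before the start site, with Y box letters after it at 59 and 35 bases before the start. H2-Aa held Y box letters 48 bases before the start and no X box core. Pou2af1 held an X box core, AGAAACAG, 16 bases before the start, and 2 Y box matches that overlap each other on opposite strands, 190 and 187 bases before it. Among all 32851 RefSeq windows, 17.4% held the X box core and 37.4% the Y box on either strand, so either match alone is common. The octamer ATTTGCAT, in 1.74% of all windows, and the core of the EBF motif, CCCNNGGG, in 13.7%, were in no window of the members. These are letters in a window of set length: a match is no evidence of binding, and no match says only that the letters are not in that window.

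Pou2af1 (chromosome 9, 51213690 to 51240079) lay at 0 in all libraries of 1 group and had its highest levels in another. In Tfh5 libraries labelled Cre-positive it stood at 117, 127 and 117 CPM, against 7.13, 2.71 and 0.335 CPM in Tfh5 libraries labelled Cre-negative. In Tfh1 libraries labelled Cre-positive it stood at 50.8, 33.7 and 37.9 CPM, against 0 in all 3 Tfh1 libraries labelled Cre-negative. In TfhA it stood at 0.183, 12.1 and 9.94 CPM under the Cre-positive label, against 6.88, 14.6 and 10.6 CPM under the Cre-negative label. The order of the means was thus Tfh5 and then Tfh1 labelled Cre-positive, neither overlapping its neighbour, then TfhA labelled Cre-negative, TfhA labelled Cre-positive and Tfh5 labelled Cre-negative, each overlapping the next of these, and last Tfh1 labelled Cre-negative, which overlapped none. Of 4094.5 Pou2af1 counts in all, 90.8% were in libraries labelled Cre-positive. The ratio of Cre-positive to Cre-negative label was 32.8 in Tfh5 (95% counting interval 26.1 to 41.8), and Pou2af1 was at least 278-fold higher in Tfh1 labelled Cre-positive, with the group at 0 set to a floor of 3 counts. These label differences chose the gene. Intervals and floors cover counting error only, since PCR copies are not independent molecules. In the GENCODE gene annotation Pou2af1 overlaps Gm47828 on the same strand, so reads of the pair may be mixed.

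Between treatments, Pou2af1 rose in Tfh5 over TfhA under the Cre-positive label and fell in Tfh1 against TfhA under the Cre-negative label. Within the Cre-positive label its mean was 120 ± 5.61 CPM in Tfh5 and 7.41 ± 6.35 CPM in TfhA (SD, n = 3 each), a log2 fold change of 3.99 ± 0.92 (SE; edgeR's quasi-likelihood test with Benjamini-Hochberg adjustment over all genes, adjusted p = 0.0166). That call was lost without TfhA replicate 3 (4.53, adjusted p = 0.0520) or replicate 6 (4.24, adjusted p = 0.0770), both labelled Cre-positive. Over 13 alternatives the adjusted p ran from 3.8e-12 to 0.0770 in edgeR or DESeq2. The same contrast of Tfh1, at 40.8 ± 8.92 CPM, against TfhA gave 2.44 ± 0.87 and missed the threshold (edgeR, adjusted p = 0.196), as did Tfh5 against Tfh1 with 1.56 ± 0.83 (edgeR, adjusted p = 0.453). The libraries of these groups did not overlap. In cultures labelled Cre-negative, Pou2af1 held 0 counts in Tfh1 and 300 in TfhA, at least 73.6-fold lower in Tfh1 (edgeR, adjusted p = 0.00845). Leaving out Tfh1 replicate 4 (adjusted p = 0.0565) or TfhA replicate 5 (adjusted p = 0.0514), both labelled Cre-negative, lost that call, within a range of 2.28e-18 to 0.0565 over 13 alternatives in edgeR or DESeq2. Tfh5 labelled Cre-negative, at 3.39 ± 3.45 CPM, overlapped TfhA at 10.7 ± 3.87 CPM (-1.63 ± 0.87; edgeR, adjusted p = 0.386). These contrasts share libraries with the label differences that chose the gene.

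Pou2f2 (chromosome 7, 25087350 to 25180797), which encodes the lymphoid POU factor, had another order. It stood at 56.3, 31.9 and 30.3 CPM in TfhA labelled Cre-positive and at 68.2, 37.3 and 29.9 CPM in TfhA labelled Cre-negative. In the other 4 groups it lay between 0 and 8.96 CPM, so TfhA under either label overlapped none of them. The Pou2f2 means outside TfhA were 5.66 ± 4.92 CPM in Tfh5 and 4.29 ± 2.23 CPM in Tfh1 labelled Cre-positive, and 2.54 ± 2.64 and 4.78 ± 3.16 CPM in the same cultures labelled Cre-negative. Pou2f2 fell in Tfh5 against TfhA under the Cre-negative label (-4.13 ± 1.11; edgeR, adjusted p = 0.0292). Its other contrasts with TfhA were of like size without passing the threshold: -2.79 ± 1.04 for Tfh5 and -3.20 ± 1.06 for Tfh1 labelled Cre-positive, and -3.23 ± 1.06 for Tfh1 labelled Cre-negative (edgeR, adjusted p = 0.147, 0.129 and 0.145). The single call rested on few libraries, being lost without Tfh5 replicate 2 (-4.07, adjusted p = 0.137) or without TfhA replicate 2, 4 or 5 (-3.71, -4.23 and -4.35, adjusted p = 0.0767, 0.0572 and 0.0559), all labelled Cre-negative. Over 13 alternatives its adjusted p ran from 2.63e-06 to 0.137 in edgeR or DESeq2. In the same contrast the fibroblast gene Lum stood at 0.836 ± 0.803 CPM in Tfh5 and 32.0 ± 15.9 CPM in TfhA. Pecam1, of the same stromal list, stood at 16.9 ± 5.80 CPM in Tfh5 and 16.9 ± 7.22 CPM in TfhA. Pou2f2 overlaps D930028M14Rik on the other strand, and the sources used here do not say whether counting used strand.

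Pou2f1 (chromosome 1, 165865150 to 166002749) encodes the POU factor found in most cell types. It was above 0 in all 18 libraries, between 6.62 and 34.3 CPM. The group means ran from 12.2 ± 6.91 CPM in Tfh5 labelled Cre-positive to 23.2 ± 5.82 CPM in TfhA labelled Cre-negative, and every neighbour in the order overlapped the next. Between labels in TfhA its libraries did not overlap, at 7.31 to 17.65 CPM under the Cre-positive label against 17.68 to 29.3 CPM under the Cre-negative label. Pou2f1 passed the test in none of the 7 contrasts (edgeR). Part of the gene overlaps Cd247, a T cell receptor chain gene on the other strand, so reads of the pair may be mixed. Of the wider list of octamer factors and of the Siah enzymes, which target OCA-B for degradation in B cells, 6 of 7 genes were tested and only Pou2af1 and Pou2f2 passed, in the contrasts given above. The median log2 fold change of that list ran from -0.77 to 0.20 over the 7 contrasts, beside -0.09 to 0.00 for all genes tested. Siah2, after Pou2af1 the listed gene with the highest mean, averaged 12.9 ± 9.41, 13.1 ± 5.29 and 14.4 ± 2.40 CPM in Tfh5, Tfh1 and TfhA labelled Cre-positive, and 23.6 ± 8.30, 27.4 ± 6.92 and 23.3 ± 4.24 CPM in the same cultures labelled Cre-negative.

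**Figure D2:**
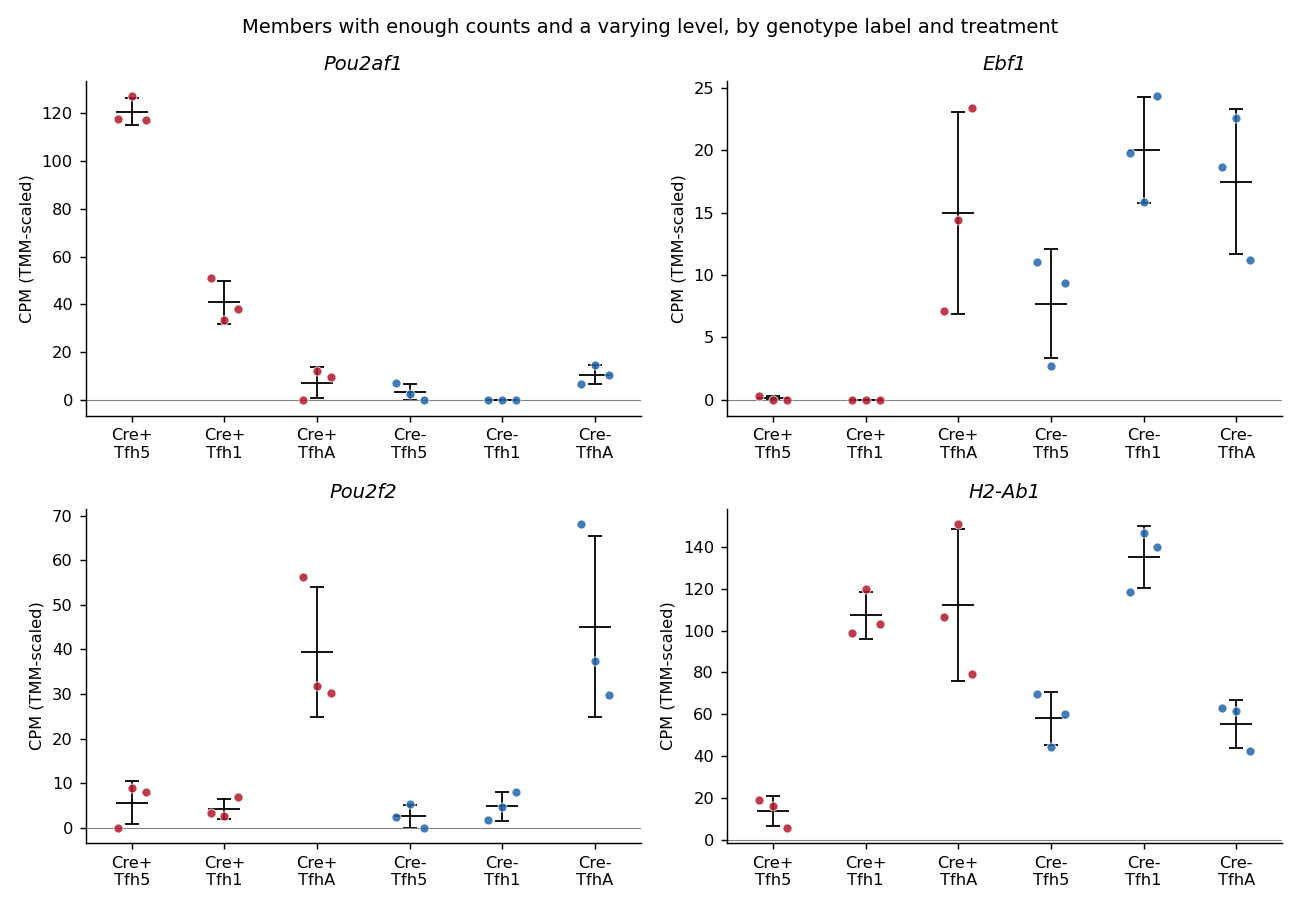
CPM of Pou2af1, Ebf1, Pou2f2 and H2-Ab1 (vertical axes) in each library, by genotype label (Cre+ red, Cre- blue) and treatment; points are libraries, black bars the mean ± SD of 3. Pou2af1 is highest in Tfh5 and Tfh1 labelled Cre-positive, where Ebf1 lies at or near 0; Pou2f2 is high in TfhA under both labels; H2-Ab1 is lowest in Tfh5 labelled Cre-positive, at 5.42 to 19.0 CPM.

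Ebf1 (chromosome 11, 44618100 to 45008096) ran opposite to Pou2af1 between the labels in Tfh5 and Tfh1. It held 2, 0 and 0 counts in Tfh5 libraries labelled Cre-positive, against 85, 19 and 56 in Tfh5 libraries labelled Cre-negative. In Tfh1 it held 0 counts in all 3 libraries labelled Cre-positive, against 120.5, 104 and 180 in those labelled Cre-negative. TfhA had 39, 143 and 195 Ebf1 counts under the Cre-positive label and 138, 221 and 112 under the Cre-negative label. In CPM, the 4 groups with Ebf1 averaged 15.0 ± 8.13 in TfhA labelled Cre-positive and 7.70 ± 4.40 in Tfh5, 20.0 ± 4.25 in Tfh1 and 17.5 ± 5.79 in TfhA labelled Cre-negative. Neighbours among these 4 overlapped in the order of the means, and the lowest of them, Tfh5 labelled Cre-negative, lay above all 6 libraries of Tfh5 and Tfh1 labelled Cre-positive. The ratio of Cre-negative to Cre-positive label in Tfh5 was 85.2, with a 95% counting interval of 23.2 to 709.9 that follows from the 2 counts. In Tfh1 Ebf1 was at least 138-fold lower under the Cre-positive label. As for Pou2af1, these label differences chose the gene.

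Within the Cre-positive label Ebf1 fell in both Tfh5 and Tfh1 against TfhA. Its 2 counts in Tfh5 stood against 377 in TfhA, a ratio of TfhA to Tfh5 of 175 with a 95% counting interval of 48.2 to 1452 (edgeR, adjusted p = 0.000176). With 0 counts in Tfh1, Ebf1 was at least 109-fold lower there than in TfhA (edgeR, adjusted p = 9.84e-05). Both calls held in all 13 alternatives, with adjusted p of 2.57e-07 to 0.0139 and 1.16e-08 to 0.00956 in edgeR or DESeq2. As for Pou2af1, these contrasts and their alternatives share libraries with the label differences that chose the gene. No contrast of Ebf1 passed under the Cre-negative label: Tfh5 against TfhA gave -1.18 ± 0.88, Tfh1 against TfhA 0.19 ± 0.86 and Tfh5 against Tfh1 -1.37 ± 0.88 (edgeR, adjusted p = 0.579, 1.0 and 0.610). Under the Cre-positive label Batf3, of the dendritic list, and Lum, of the stromal list, were also lower in both cultures than in TfhA. Both passed the test in Tfh5 against TfhA (edgeR, adjusted p = 0.0342 and 0.0101), and neither passed in Tfh1 against TfhA. Batf3 stood at 1.98 ± 3.43 CPM in Tfh5 and 1.96 ± 2.43 CPM in Tfh1, against 51.6 ± 9.21 CPM in TfhA. Lum stood at 0.389 ± 0.566 CPM in Tfh5 and 1.14 ± 1.97 CPM in Tfh1, against 46.2 ± 16.97 CPM in TfhA. Other tested genes of the same lists were higher in Tfh5 than in TfhA, without a call. Of the dendritic list, Itgax averaged 1.56 CPM and Xcr1 2.57 CPM in Tfh5, against 0 in TfhA. Pecam1, of the stromal list, averaged 48.8 CPM in Tfh5 against 17.7 CPM in TfhA.

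Ebf1 targets known from B cells gave little to set beside it. Of 13 such genes 2 had enough counts for the test, Pou2af1 and Vpreb1, and Pax5, Igll1 and Fcrla were at 0 in all 18 libraries. The other EBF genes were also at or near 0, with 0.83 counts of Ebf2, 1 of Ebf3 and 0 of Ebf4 in all. Within the list of the EBF family and the E protein network, 10 of 16 genes were tested. Among them Ikzf3, which encodes the lymphoid zinc finger factor Aiolos, rose in Tfh5 and Tfh1 against TfhA under both labels. It held 1506 counts in Tfh5 and 638 in Tfh1 labelled Cre-positive and 0 in TfhA (edgeR, adjusted p = 1.05e-08 and 2.81e-07). In cultures labelled Cre-negative, Ikzf3 averaged 35.2 ± 8.18 CPM in Tfh5 and 13.7 ± 7.01 CPM in Tfh1, against 1.24 ± 1.49 CPM in TfhA (edgeR, adjusted p = 3.11e-05 and 0.00321).

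Id3, which encodes an inhibitor of E proteins, fell in Tfh5 under both labels. It averaged 16.3 ± 8.78 CPM in Tfh5 against 60.1 ± 16.2 CPM in TfhA labelled Cre-positive (-1.88 ± 0.42; edgeR, adjusted p = 0.00327), and 2.76 ± 1.26 CPM in Tfh5 against 88.6 ± 22.8 CPM in TfhA labelled Cre-negative (-4.99 ± 0.49; edgeR, adjusted p = 4.2e-09). It was also lower in Tfh5 than in Tfh1 under both labels (edgeR, adjusted p = 0.0132 Cre-positive and 0.000388 Cre-negative), and in Tfh1 than in TfhA under the Cre-negative label (adjusted p = 0.00253). Id2, its relative, rose under the Cre-negative label, with 936 ± 92.1 CPM in Tfh5 and 660 ± 52.5 CPM in Tfh1 against 364 ± 80.5 CPM in TfhA (edgeR, adjusted p = 7.56e-06 and 0.00741); no contrast of Id2 passed under the Cre-positive label, and the difference between labels was not tested. Foxo1, which acts upstream of Ebf1 in B cell progenitors, rose in Tfh5 against TfhA under both labels, by 0.97 ± 0.23 and 1.03 ± 0.23 (edgeR, adjusted p = 0.00641 Cre-positive and 0.00367 Cre-negative), and in Tfh1 against TfhA under the Cre-positive label by 1.01 ± 0.23 (adjusted p = 0.00857). Ikzf1, which encodes Ikaros, fell in Tfh5 against TfhA under the Cre-negative label (-1.04 ± 0.30; edgeR, adjusted p = 0.0339). Over the 7 contrasts the list's median was -0.14 to 0.63, with genes at 3 counts or fewer in a group set to their bound, beside -0.09 to 0.00 for all genes tested.

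H2-Ab1 (chromosome 17, 34263227 to 34269418) was the class II member with signal in all 18 libraries, 10632 counts in all. In Tfh5 it stood at 19.0, 16.1 and 5.42 CPM under the Cre-positive label, against 69.6, 44.3 and 59.9 CPM under the Cre-negative label. Tfh1 libraries had 98.7, 120 and 103 CPM under the Cre-positive label, against 118, 147 and 140 CPM under the Cre-negative label. TfhA libraries had 106, 151 and 79.03 CPM under the Cre-positive label, against 62.8, 61.5 and 42.3 CPM under the Cre-negative label. Tfh5 labelled Cre-positive was the lowest group, below every other library. Tfh5 and TfhA labelled Cre-negative overlapped each other and lay below the other 3 groups, which overlapped their neighbours. The ratio of Cre-negative to Cre-positive label was 4.40 in Tfh5 (95% counting interval 3.87 to 5.02), a log2 fold change of -2.10, and this difference chose the gene.

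H2-Ab1 fell in Tfh5 against both other cultures under the Cre-positive label. Its mean was 13.5 ± 7.16 CPM in Tfh5, against 107 ± 11.3 CPM in Tfh1 (-2.99 ± 0.35; edgeR, adjusted p = 4.54e-07) and 112 ± 36.4 CPM in TfhA (-3.05 ± 0.35; edgeR, adjusted p = 6.81e-08). Both calls held in all 13 alternatives, with adjusted p of at most 0.00175 and 0.0012 in edgeR or DESeq2. Both contrasts and their alternatives share the Tfh5 libraries with the label difference that chose the gene. Tfh1 and TfhA labelled Cre-positive overlapped (-0.06 ± 0.32; edgeR, adjusted p = 0.993). H2-Ab1 rose under the Cre-negative label in Tfh1, at 135 ± 14.9 CPM, over TfhA at 55.5 ± 11.5 CPM (1.28 ± 0.32; edgeR, adjusted p = 0.0206), a call lost without Tfh1 replicate 4 or 5 or TfhA replicate 5 of that label (1.22, 1.26 and 1.14; adjusted p = 0.0939, 0.0637 and 0.169) within a range of 0.00284 to 0.169 over 13 alternatives in edgeR or DESeq2. Tfh5 labelled Cre-negative, at 57.9 ± 12.8 CPM, gave 0.06 ± 0.32 against TfhA and -1.22 ± 0.32 against Tfh1 (edgeR, adjusted p = 0.977 and 0.0703). The label contrast in TfhA is not known to have chosen the members. There H2-Ab1 did not overlap between labels (1.02 ± 0.32), yet missed the threshold (edgeR, adjusted p = 0.676, unadjusted p = 0.00311). The dendritic and myeloid sum was low beside H2-Ab1 in Tfh5 labelled Cre-positive (5.74 to 9.48 CPM) and also low in Tfh1 of that label (0.994 to 11.9 CPM), where H2-Ab1 was high. The stromal genes Lum and Dcn were lower in Tfh5 than in TfhA under the Cre-positive label, as H2-Ab1 was, with Dcn at 0 in Tfh5 and 8.31 ± 10.1 CPM in TfhA. Both were also low in Tfh1 of that label, Lum at 1.14 ± 1.97 CPM and Dcn at 0. Pecam1, of the same list, was higher in Tfh5 than in TfhA of that label, at 48.8 ± 5.71 against 17.7 ± 10.95 CPM.

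The partner genes of H2-Ab1 were at or near 0. H2-Aa (chromosome 17, 34282744 to 34287823), which encodes the chain that pairs with the H2-Ab1 product, held 71.33 counts over 18 libraries and was at 0 in 13 of them. H2-Aa held 0 counts in Tfh5, 0, 5 and 0 in Tfh1 and 7.33, 0 and 32 in TfhA labelled Cre-positive, against 0, 0 and 3 in Tfh5, 0 in Tfh1 and 24, 0 and 0 in TfhA labelled Cre-negative. Where H2-Aa was seen at all it was mostly in TfhA. H2-Eb1 (chromosome 17, 34305867 to 34316674) held 45.41 counts and was at 0 in 10 libraries. Its highest values were 18 and 15 counts, in TfhA replicates 4 and 5 labelled Cre-negative, and no other library passed 4. The promoter of H2-Eb1 printed above holds the X and Y box letters. Neither gene had enough counts for the test, and a group of 3 libraries at 0 allows up to 3 counts.

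Cd74 (chromosome 18, 60803849 to 60812652) held 494.11 counts in all. It had 1.96, 0.130 and 3.49 CPM in Tfh5, 0, 0.158 and 2.93 in Tfh1 and 0, 0.202 and 10.8 in TfhA labelled Cre-positive, against 0, 0.285 and 6.19 in Tfh5, 1.82, 2.28 and 4.32 in Tfh1 and 1.89, 4.70 and 18.5 in TfhA labelled Cre-negative. All 6 groups overlapped, with the highest library, TfhA replicate 5 labelled Cre-negative, holding 185 of the counts. No contrast of Cd74 passed the test (edgeR). Ciita (chromosome 16, 10480014 to 10531064) held 74 counts in 5 libraries. In Tfh5 labelled Cre-positive it held 18, 0 and 44 counts, against 0, 10 and 0 in Tfh5 labelled Cre-negative. The remaining libraries had at most 1 count. Ciita overlaps Dexi on the other strand, and it had too few counts for the test. The highest Ciita counts thus fell in the group with the lowest H2-Ab1, in 2 of its 3 libraries.

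**Figure D3:**
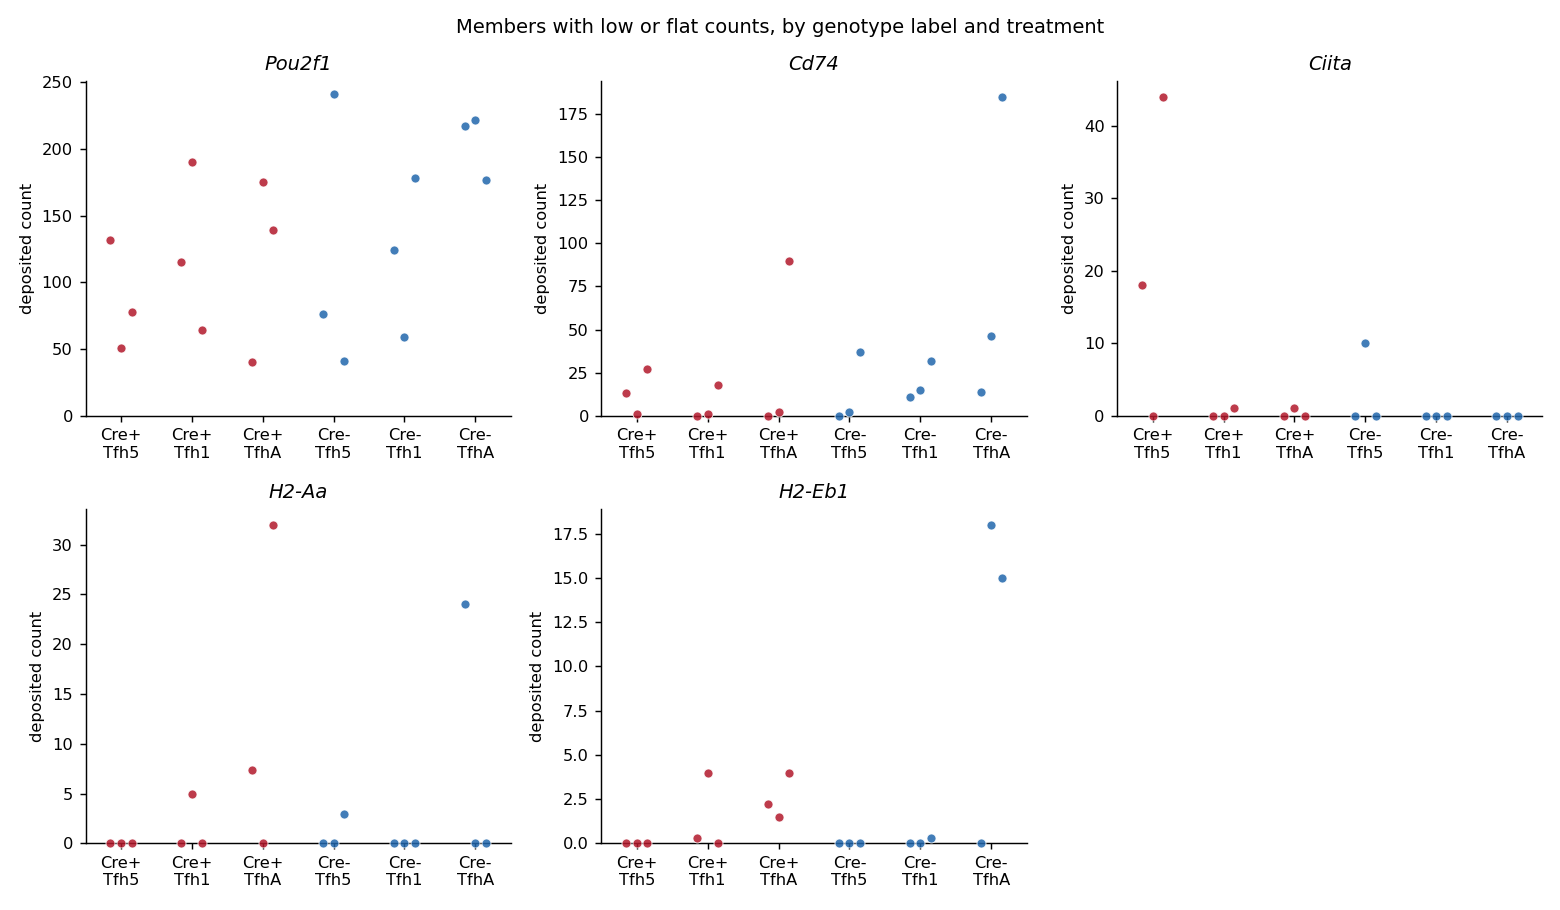
Deposited counts (vertical axes) of Pou2f1, Cd74, Ciita, H2-Aa and H2-Eb1 in each library, by genotype label (Cre+ red, Cre- blue) and treatment; each point is a library. Pou2f1 is above 0 in every library, and its TfhA libraries do not overlap between labels. H2-Aa and Ciita are at 0 in 13 of the 18 libraries each and H2-Eb1 in 10.

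The other class II pathway genes were counted by list. Of 10 chain and loading genes 6 were tested, and H2-Ab1 was the member that passed, in the 3 contrasts given above. H2-DMa and H2-DMb1, which load peptide on class II, held 131 and 149.14 counts in all, and H2-Oa and H2-Ob, which restrain H2-DM, held 194.5 and 199.5. Of the 8 factors that assemble on class II promoters 7 were tested and none passed in any of the 7 contrasts, with list medians of -0.61 to 0.14. Nfyb, a subunit of NF-Y and the listed factor with the highest mean, averaged 49.4 ± 16.2, 78.1 ± 1.48 and 79.2 ± 6.48 CPM in Tfh5, Tfh1 and TfhA labelled Cre-positive, against 83.3 ± 5.88, 127 ± 20.9 and 81.5 ± 17.3 CPM in the same cultures labelled Cre-negative. The lowest Nfyb mean was in Tfh5 labelled Cre-positive, as for H2-Ab1, without a call in any contrast. Creb1, which binds beside the X box, averaged 47.6 CPM over the 18 libraries. Among processing genes, of which 5 of 7 listed were matched and tested, Ctss rose in Tfh5 labelled Cre-positive. Ctss encodes cathepsin S, the protease that trims the invariant chain, and it averaged 180 ± 33.7 CPM in Tfh5 against 39.2 ± 25.8 CPM in TfhA (2.20 ± 0.47; edgeR, adjusted p = 0.00552), opposite to H2-Ab1 in that contrast. Ifi30, which encodes a lysosomal thiol reductase, fell in Tfh1 at 18.1 ± 5.58 CPM against TfhA at 54.9 ± 21.4 CPM labelled Cre-negative (-1.60 ± 0.43; edgeR, adjusted p = 0.0342). That list's median was -0.02 to 2.09 over the 7 contrasts, with genes at 3 counts or fewer in a group set to their bound.

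Interferon-γ is the usual inducer of Ciita, and its gene Ifng held 9 counts in 1 library. Of 8 genes on that input 7 were tested, and Socs1, a feedback inhibitor of the JAK kinases, was the one called. It fell in Tfh5 at 19.1 ± 11.4 CPM against TfhA at 73.1 ± 10.6 CPM under the Cre-negative label (-1.94 ± 0.43; edgeR, adjusted p = 0.00399). The class I genes, which share much of the promoter machinery, were all tested, 7 of 7. H2-K1, a class I heavy chain gene, fell together with H2-Ab1 in Tfh5 labelled Cre-positive: it averaged 221 ± 41.5 CPM, against 462 ± 44.0 CPM in Tfh1 (-1.06 ± 0.19; edgeR, adjusted p = 0.000702) and 651 ± 43.3 CPM in TfhA (-1.56 ± 0.19; edgeR, adjusted p = 2.66e-07). Tap1, a peptide transporter subunit, also fell in Tfh5 against TfhA there (-1.06 ± 0.31; edgeR, adjusted p = 0.0339). In cultures labelled Cre-negative, Nlrc5, the class I counterpart of Ciita, fell in Tfh5 at 1.38 ± 1.35 CPM against TfhA at 22.7 ± 7.96 CPM (-4.01 ± 0.93; edgeR, adjusted p = 0.00541), and Tapbp fell in Tfh1 at 87.0 ± 36.7 CPM against TfhA at 169 ± 19.4 CPM (-0.96 ± 0.25; edgeR, adjusted p = 0.0245). B2m, the class I light chain gene, passed in no contrast. The class I median was -1.06 in Tfh5 against TfhA labelled Cre-positive, beside -0.05 for all genes tested, and -0.61 to 0.26 in the other 6 contrasts. H2-K1 held fractional counts in 15 of 18 libraries, so reads shared with its close copies make its level uncertain; H2-Ab1 did in 2.

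**Figure D4:**
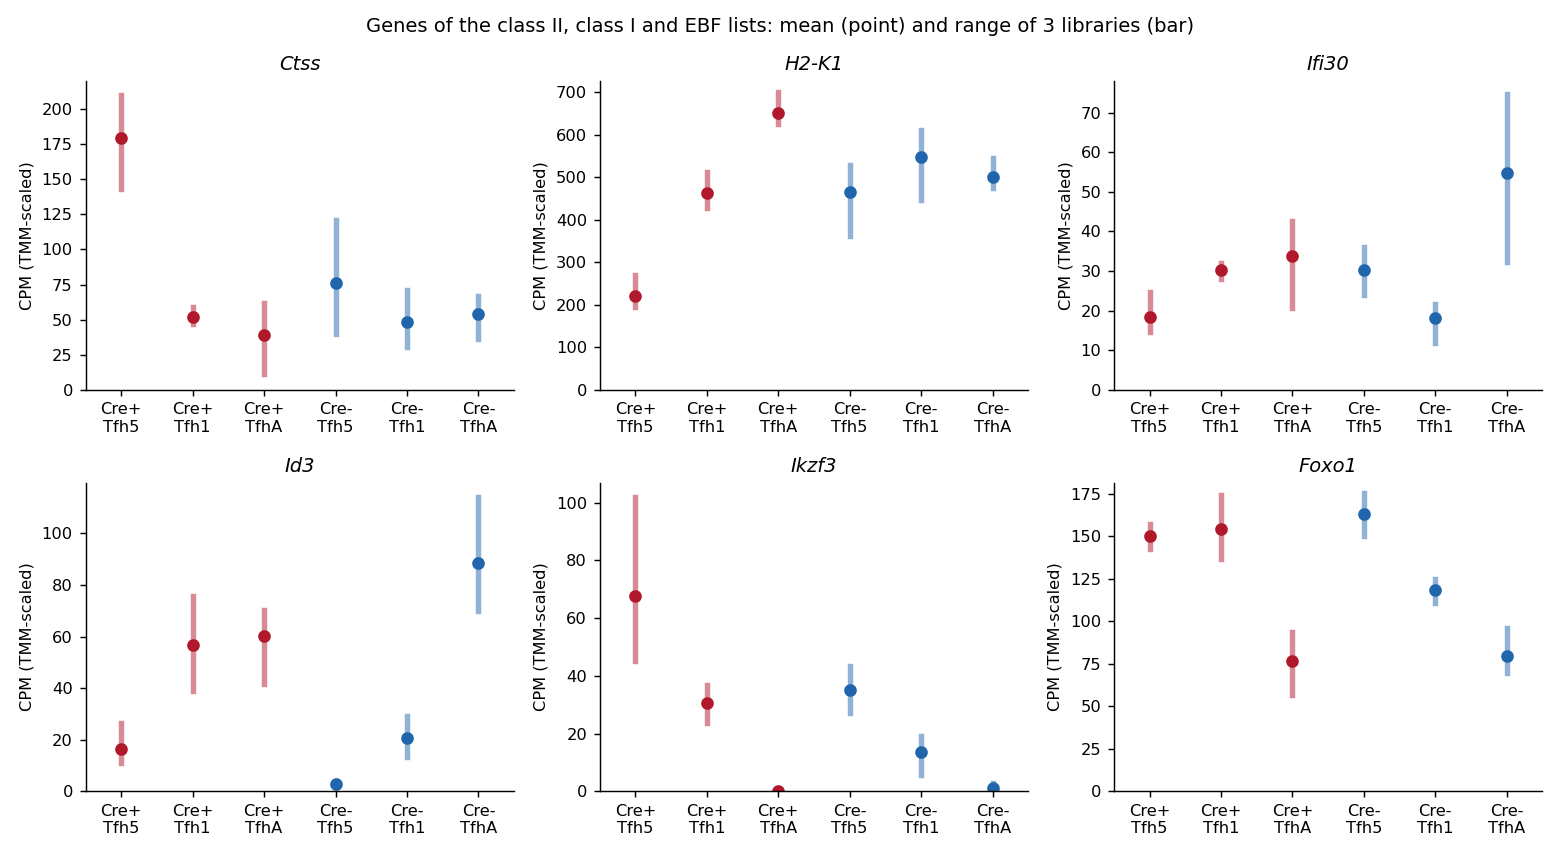
CPM (vertical axes) of Ctss, H2-K1, Ifi30, Id3, Ikzf3 and Foxo1 in the 6 groups, by genotype label (Cre+ red, Cre- blue) and treatment; points are means and bars the range of 3 libraries. Ctss is highest and H2-K1 lowest in Tfh5 labelled Cre-positive, Id3 is low in Tfh5 and Ikzf3 at or near 0 in TfhA under both labels.

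Counted over the 9 members, 6 of which had enough counts for the test, the calls numbered 0 to 3 per contrast. In Tfh5 against TfhA labelled Cre-positive 3 members passed, 1 higher and 2 lower, where 5.39% of the 11735 genes tested passed. In Tfh1 against TfhA of that label 1 passed (2.57% of all genes), and in Tfh5 against Tfh1 1 passed (1.76%). Under the Cre-negative label 1 passed in Tfh5 against TfhA (5.08%), 2 in Tfh1 against TfhA (2.23%) and 0 in Tfh5 against Tfh1 (0.554%). H2-Aa, H2-Eb1 and Ciita had too few counts to be tested. Between labels in TfhA no member and no gene passed with edgeR (0.0%). Of the 11735 genes tested there, 606 had an unadjusted p under 0.05 in edgeR. DESeq2 called 20 genes, none of them members. The label contrasts that chose the members separated 3 of the 6 tested members by library range in Tfh5, where 16.6% of tested genes were so separated. In Tfh1 they separated 2 of the 6 (16.3%). Since these contrasts chose the members, nothing is read from the shares. The treatment contrasts use the same Tfh5 and Tfh1 libraries, so nothing is read from their shares either. The median log2 fold change of the 6 tested members was -1.88 in Tfh5 against TfhA labelled Cre-positive, beside -0.05 for all genes tested, and lay between -1.41 and 0.20 in the other 6 contrasts, with Ebf1 and Pou2af1 at their bounds where a group held 3 counts or fewer.

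**Figure D5:**
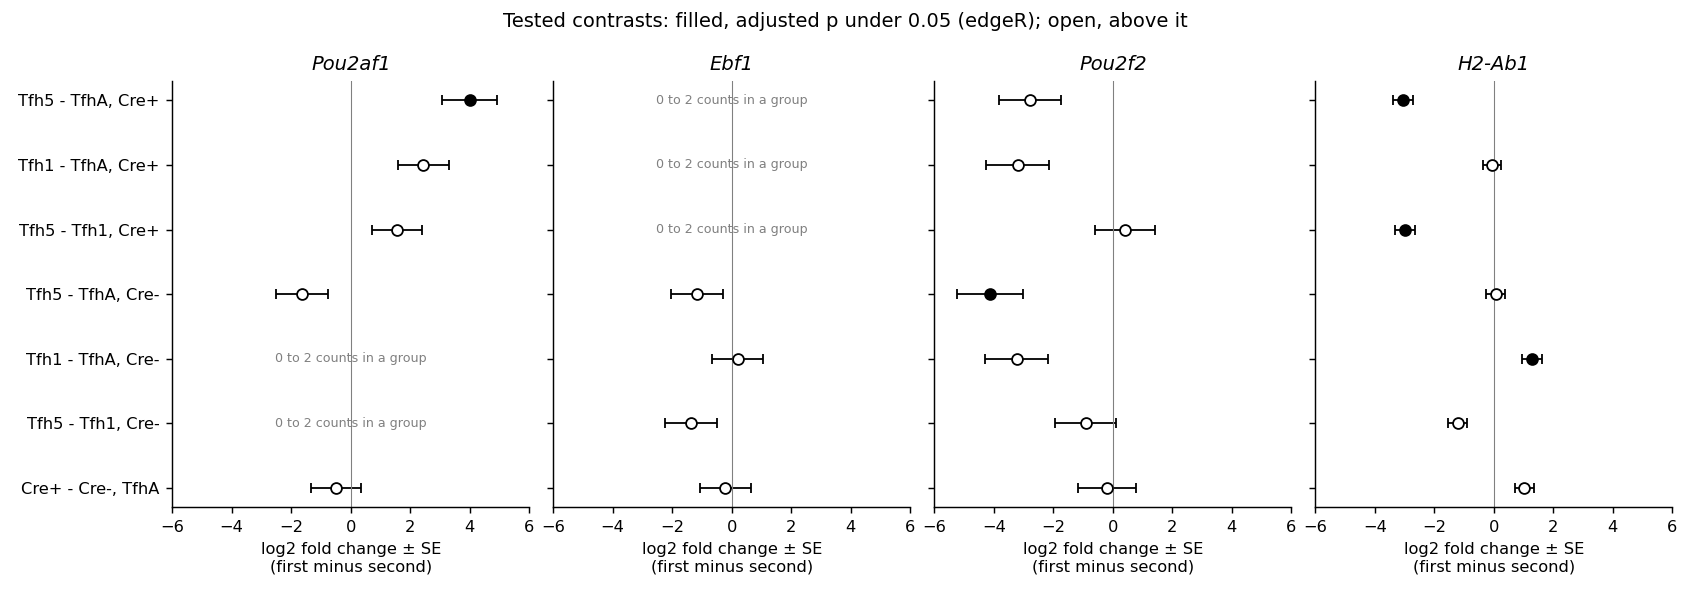
Log2 fold change ± SE (horizontal axes, first-named minus second-named group) of Pou2af1, Ebf1, Pou2f2 and H2-Ab1 in the 7 tested contrasts, Cre+ and Cre- being the genotype labels; filled points passed an adjusted p of 0.05 in edgeR. Contrasts with 0 to 2 counts in a group are named without a value. H2-Ab1 lies at about -3 in both contrasts of Tfh5 labelled Cre-positive, and Pou2f2 lies below 0 in all 4 contrasts against TfhA.

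The genes whose levels most resembled each of 3 members were ranked by Pearson's r of log2 CPM (prior count 2) over the 18 libraries, a description in which all points share the 6 groups. For Pou2af1 they were Plekho1 (r = 0.877), Rundc3a (0.865), Lsp1 (0.857), Cd27 (0.857) and Limd2 (0.848). Plekho1 averaged 231, 133 and 30.2 CPM in Tfh5, Tfh1 and TfhA labelled Cre-positive, against 12.6, 6.49 and 21.7 CPM in the same cultures labelled Cre-negative, the same order at the top and at the bottom as Pou2af1. For Ebf1 they were Hells (0.935), Il24 (0.931), Tfrc (0.915), Zbtb32 (0.896) and Dclk1 (0.882). Il24 averaged 0.0433, 0.369 and 39.0 CPM in Tfh5, Tfh1 and TfhA labelled Cre-positive, against 24.8, 86.9 and 31.7 CPM under the Cre-negative label. For H2-Ab1 they were Hilpda (0.965), Ier3 (0.955), Pgm1 (0.940), Mgarp (0.933) and Mt1 (0.927). Hilpda averaged 48.5, 260 and 325 CPM in Tfh5, Tfh1 and TfhA labelled Cre-positive, against 205, 367 and 213 CPM under the Cre-negative label, so that Tfh5 labelled Cre-positive was lowest for both genes. The members were left out of this ranking, so H2-Aa, H2-Eb1 and Cd74 could not appear in it. Genes with too few counts for the test, such as H2-Eb2 and H2-DMb2, could not appear either. H2-Oa, H2-Ob, H2-DMa and H2-DMb1 could appear and were not among these neighbours, though their counts were low.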

How the data were processed

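Per the labels' protocols, 3′ mRNA libraries (Lexogen, FWD) were prepared from 50 ng of RNA, so reads lie near polyadenylated ends. The deposited values are expected counts for each gene. Per the submitters' processing notes, the tools were STAR 2.7.2b and featureCounts 1.6.4, and the genome was mm10. Of the values, 11.7% to 18.1% per library were not whole. The design had assumed whole counts, so values were rounded to whole numbers before testing. The sources used here state neither the rule for shared reads nor the strand setting. Names came from a reference table for 25275 of 27179 identifiers; 1904 had no name, and the 2 most abundant identifiers held 19.7% to 46.2% of each library's counts.

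All 18 libraries entered an edgeR 4.0.16 fit in R 4.3.3 with 1 mean per group, TMM factors, the filterByExpr filter (11735 genes left) and robust quasi-likelihood tests, adjusted by the Benjamini-Hochberg method at 0.05; SEs were worked back from the F statistic. The script was tested on simulated data. The members and 14 gene lists (143 of 145 entries matched, March1 and March8 were not) were chosen with earlier results of these data known. Genes named were drawn from the members, Maf, the called genes (the 4 lowest adjusted p per list) and the 2 highest means per list, and the 5 genes most like each of 3 members; Ikzf1 and the genes given by counts alone were added after their values were seen. Alternatives were RLE size factors, no count filter, rounding down, leaving out the 2 most abundant identifiers, only the libraries compared, a replicate block, each library left out, and DESeq2 1.42.0. Gene positions are from RefSeq.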

Additional observations from a re-analysis of the deposited data

Results flagged for a closer look

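For Pou2af1, the difference of mean CPM between Tfh1 and TfhA was 33.4 under the Cre-positive label and -10.7 under the Cre-negative label, with no overlap of libraries in either. All Tfh1 libraries lay above all TfhA libraries under the Cre-positive label, where the contrast missed the threshold (edgeR, adjusted p = 0.196), and below them under the Cre-negative label (edgeR, adjusted p = 0.00845). The difference between the labels was not tested.

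For H2-Ab1, the difference of mean CPM between the Cre-positive and Cre-negative labels was -44.4 in Tfh5 and 56.6 in TfhA, again with no overlap in either culture. The Tfh5 difference chose the gene, and the TfhA contrast missed the threshold (edgeR, adjusted p = 0.676). In Tfh5 16.6% of tested genes did not overlap between labels, and the share in TfhA was not counted. The opposite directions in the 2 cultures were not tested against each other.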

How the results depend on the processing

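The calls of Ebf1 (Tfh5 and Tfh1 against TfhA) and H2-Ab1 (Tfh5 against TfhA and Tfh1) under the Cre-positive label held in every alternative run. All of these runs reuse libraries whose label differences chose the genes. Members called in Tfh1 against TfhA labelled Cre-positive numbered 3 with no count filter, 2 with only the libraries compared and 3 with DESeq2. In Tfh5 against Tfh1 of that label they numbered 2 with no count filter and 2 with only the libraries compared. Under the Cre-negative label, Tfh5 against TfhA had 2 with no count filter and 0 to 1 with a library left out, Tfh1 against TfhA 0 to 2 with a library left out, and Tfh5 against Tfh1 2 with no count filter, 2 with DESeq2 and 0 to 1 with a library left out. The cause of these shifts was not tested.

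Whether the replicate numbers pair the samples is not known. Over 18 same-number pairs the correlation of deviations from the group means was -0.0373 to 0.0662, with 0 over 0.1. For pairs with other numbers it reached 0.0471. These values showed no sign of pairing but cannot exclude it, since scatter between libraries can hide a shared source. With a replicate block, members called numbered 2 in Tfh5 against TfhA labelled Cre-positive (Pou2af1 was lost), 0 in Tfh5 against TfhA labelled Cre-negative (Pou2f2 was lost) and 1 in Tfh1 against TfhA labelled Cre-negative (Pou2af1 was lost), and calls over all genes moved to 604, 595 and 282. The block turned Cd74 in Tfh5 against TfhA to 1.20 and H2-Ab1 in Tfh1 against TfhA to 0.0094, both labelled Cre-positive.

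Calls over all genes differed by more than 1.5 times from the values of the 18-library fit in these cases. DESeq2 gave 1017, 631 and 436 calls in Tfh5 against TfhA, Tfh1 against TfhA and Tfh5 against Tfh1 labelled Cre-positive (633, 302 and 206 with edgeR), and 932, 476 and 260 labelled Cre-negative (596, 262 and 65 with edgeR). No count filter gave 314 and 232 in Tfh5 against Tfh1 (Cre-positive and Cre-negative) and only the libraries compared gave 115 and 28 there, and 566 in Tfh1 against TfhA labelled Cre-negative. Leaving out a library gave as few as 170 in Tfh1 against TfhA labelled Cre-positive and, labelled Cre-negative, 360, 129 and 25 in the 3 contrasts. In TfhA between labels no count filter gave 23, DESeq2 20, RLE size factors 1 and leaving out a library 0 to 4, against 0 with edgeR on all 18 libraries.

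The log2 fold changes that changed sign with a library left out were all uncalled in the fit of 18 libraries. Under the Cre-positive label, Tfh5 against TfhA ran from -1.80 to 3.87 for Cd74 and -0.73 to 0.11 for Pou2f1, Tfh1 against TfhA from -5.34 to 3.02 for Cd74, -0.26 to 0.21 for H2-Ab1 and -0.17 to 0.67 for Pou2f1, and Tfh5 against Tfh1 from -0.085 to 0.98 for Pou2f2. Under the Cre-negative label, Tfh5 against TfhA ran from -0.092 to 0.22 for H2-Ab1, Tfh1 against TfhA from -0.024 to 0.46 for Ebf1, and Tfh5 against Tfh1 from -1.09 to 0.31 for Pou2f1 and -4.17 to 0.20 for Cd74. Between labels in TfhA the ranges were -1.04 to 0.038 for Pou2af1, -0.69 to 0.11 for Ebf1, -0.54 to 0.23 for Pou2f2 and -6.04 to 0.17 for Cd74. At this depth H2-Aa, H2-Eb1 and Ciita cannot show differences of a few counts.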
